A study of Mus musculus with 165 samples.

Results

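The 42 genes described here encode proteins that copy DNA: the factors that license and fire replication origins, the replicative helicase, the polymerases with their sliding clamp and clamp loader, the enzymes that join Okazaki fragments and supply deoxynucleotides, and the factors that rebuild chromatin behind the fork. They were taken by symbol from a list of replication genes, a rule that uses no measured value, although the list was chosen with earlier results of these data known. All 42 were found among the 36255 genes of the table, and all 42 passed the filter on low values, which left 17414 genes for testing. They lie on 14 chromosomes of GRCm38, and coordinates below are whole genes of that build (GENCODE annotation) except for the promoter stretches.

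The PUER line was grown out of blood progenitors of mice without PU.1 (Spi1-/-), from bone marrow per the labels while the study's text names both bone marrow and fetal liver, and given a fusion of PU.1 with the hormone-binding part of the estrogen receptor, which 4-hydroxy-tamoxifen (OHT) switches on. All groups share this genotype and this transgene, and all come from the same line. RNA was sequenced from undifferentiated cells kept in 5 ng/ml IL3 without OHT (3 libraries), which serve as the start of both courses, from cells held for 48 h in 10 ng/ml GCSF in place of IL3, before OHT (GCSF 0h, 3 libraries), from 27 time points between 1h and 168h after 100 nM OHT in GCSF (GCSF-OHT, 78 libraries), and from 27 time points after 200 nM OHT in IL3 (IL3-OHT, 81 libraries). Titles of the GCSF 0h libraries name OHT, but their treatment label and the study's methods do not. The courses differ in cytokine, OHT dose and GCSF pre-treatment, so that these cannot be told apart. GCSF 0h differs from undifferentiated cells in cytokine and may also differ in time since seeding. Part of the medium was replaced and OHT renewed at 40h, 88h and 136h, and cells were detached with trypsin at all time points after 24h. GCSF-OHT 96h, 112h and 152h had 2 libraries and all other groups 3, drawn from separate wells of a plate per time point. The study left out IL3-OHT 96h and 144h because all their replicates stood apart from neighbouring time points. Here they were also left out, except where they are named. The 6 libraries of 120h in both courses carry another series of library names than all others.

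DNA replication is prepared in G1, when the origin recognition complex, Cdc6 and Cdt1 load the MCM helicase onto DNA, and it starts in S phase, when Cdc45 and the GINS complex turn the helicase on. Many of these genes are classic targets of the E2F transcription factors, which are held in check by the retinoblastoma family until cells commit to division. Myeloid progenitors divide, and mature neutrophils have left the cell cycle. In bulk RNA, fewer replicating cells and less RNA per replicating cell cannot be told apart.

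Promoter sequences are shown because E2F sites are a known feature of this gene group. Whether such sites bear on the levels described below was not tested. RefSeq promoters (250 bases before to 50 after the start, GRCm38.p6) were matched by symbol for 35 of 42 members (41 promoters). The E2F-type motifs TTTCGCGC, TTTGGCGC, TTTCCCGC and TTTGCCGC, searched on both strands and partly overlapping each other, were found in 14 promoters of members (34.1%), against 744 of 32851 promoters of all genes (2.26%). A CCAAT box, searched in the same way, was found in 24 promoters of members (58.5%) and in 37.4% of all promoters. The 14 genes with an E2F-type motif were *Cdc6*, *Cdt1*, *Gins3*, *Lig1*, *Mcm3*, *Mcm5*, *Mcm6*, *Mcm7*, *Orc1*, *Pola1*, *Pold1*, *Pole2*, *Rfc3* and *Uhrf1*. A match is a description of the letters and not evidence of binding. Stretches from 3 of these promoters are given 5′ to 3′ on the strand of the gene, each upstream of the annotated start, with the motif in capitals:
Mcm5 (chr8:75109329-75109388, plus strand, 60 bases, 2 overlapping matches): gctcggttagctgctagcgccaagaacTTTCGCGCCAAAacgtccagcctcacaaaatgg
Mcm6 (chr1:128359736-128359830, minus strand, 95 bases, 3 matches, of which 2 overlap): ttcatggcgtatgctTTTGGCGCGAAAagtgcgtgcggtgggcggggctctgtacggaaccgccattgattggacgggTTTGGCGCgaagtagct
Pola1 (chrX:93632261-93632320, minus strand, 60 bases, 1 match on the other strand): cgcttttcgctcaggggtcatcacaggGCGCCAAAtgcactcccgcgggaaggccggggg

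Levels are normalized counts, that is, read counts divided by a size factor of the library. Depth ran from 14600246 to 33147945 estimated reads (median 21960878), and 3 reads were worth a normalized count of 1.96 to 5.51. *Spi1*, the gene that the line lacks and the transgene supplies, had normalized counts of 4482 to 13387 in every library, so that it cannot check the genotype. Its level differed between groups, with means of 9990 in undifferentiated cells, 4790 at IL3-OHT 136h and 5593 at IL3-OHT 168h. Means at IL3-OHT 96h and 144h were 9252 and 7325. In GCSF the means were 12586 at GCSF 0h and 11121 at GCSF-OHT 168h. *Spi1* was called lower at IL3-OHT 168h (−0.84), and whether its level bears on the members was not tested. The summed neutrophil markers ran from 293567 to 300002 in undifferentiated cells, 396592 to 444633 at GCSF 0h, 714756 to 765895 at GCSF-OHT 168h and 253890 to 286764 at IL3-OHT 168h. The 6 monocyte and macrophage markers summed to 2714 to 2982, 868 to 1163, 8766 to 9911 and 12718 to 13772 in the same order. The 6 myeloid progenitor markers summed to 33227 to 37512, 42228 to 44216, 35146 to 40413 and 15057 to 19270.2, and 5 of them were lower at IL3-OHT 168h than in undifferentiated cells. The sums hide opposite moves of single markers. Against undifferentiated cells, 3 progenitor markers were called lower and 1 higher at GCSF 0h, and 4 lower and 1 higher at GCSF-OHT 168h. Of the 8 neutrophil markers, 4 were called higher and 3 lower from GCSF 0h to GCSF-OHT 168h. Of the 4 mast cell and basophil markers *Cpa3* and *Fcer1a* had at most 3 reads in every library, and the list summed to 176.64 to 204.57, 242.59 to 262.82, 127.79 to 141.18 and 47.50 to 60.39. The hemoglobin gene *Hbb-bs* and the T cell markers *Cd3e* and *Cd8a* also had at most 3 reads in every library. Other lymphoid markers were low but not level. The 6 lymphoid markers summed to 24.55 to 34.02, 5.59 to 10.62, 3.91 to 6.89 and 4.71 to 8.31 in the same order. Against undifferentiated cells, 2 of the 3 tested were called lower at GCSF 0h, GCSF-OHT 168h and IL3-OHT 168h. Of 2 erythroid markers tested, 1 was called lower at GCSF 0h and at GCSF-OHT 168h. Neutrophil, monocyte, progenitor, mast cell, lymphoid and erythroid markers thus differed between groups compared below, and their part in those results was not tested.

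Most of the 42 genes rose over the 48 h in GCSF before OHT. Relative to undifferentiated cells, 38 of 42 members were higher at GCSF 0h (limma, adjusted p under 0.05 and log2 fold change over 0.58), where 13% of all genes tested were called higher and 20.7% lower. The median log2 fold change of the members was 1.39 (range 0.32 to 2.04), against −0.09 over all genes. No member was called lower by limma, edgeR or DESeq2, and 0 were lower at an unadjusted p under 0.05. The largest rises were those of *Prim1*, the primase subunit that makes the RNA primer (log2 fold change 2.04 ± 0.08 SE), *Tyms*, thymidylate synthase (1.91 ± 0.10), and *Rrm2*, the small subunit of ribonucleotide reductase (1.80 ± 0.06). The 4 members that did not pass were *Orc6* (0.32 ± 0.09), *Pcna* (0.34 ± 0.05), *Rfc3* (0.44 ± 0.09) and *Gins4* (0.45 ± 0.06). Reads on members made up 0.149% of the reads of undifferentiated libraries and 0.439% at GCSF 0h.

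Over the following 168 h of OHT in GCSF a number of members fell again. From GCSF 0h to GCSF-OHT 168h, 23 of 42 members fell (background 12.6%) and 0 rose (background 12.1%), with a median log2 fold change of −0.60 against 0.00 over all genes. The count of 0 for rises also held in edgeR and DESeq2, and 0 members were higher at an unadjusted p under 0.05. The largest falls were those of *Mcm10*, which helps to activate the helicase (−1.11 ± 0.08), *Cdt1*, the loader of the MCM helicase (−1.10 ± 0.09), and *Orc1*, a subunit of the origin recognition complex (−1.05 ± 0.15). Against undifferentiated cells, however, 27 members were still higher at GCSF-OHT 168h and 0 lower (backgrounds 15.5% and 23.6%, edgeR and DESeq2 also 0 lower, 0 lower at an unadjusted p under 0.05), with *Prim1* (1.66 ± 0.08), *Cdc45* (1.35 ± 0.07) and *Tyms* (1.31 ± 0.10) furthest up. These comparisons share libraries: GCSF 0h enters both the rise and the fall, and the undifferentiated libraries enter the rise and the end-to-end comparison.

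In IL3 few members differed between the start and 168 h. At IL3-OHT 168h, 1 member was higher than in undifferentiated cells and 3 were lower (backgrounds 10.2% and 15.2%), with a median of −0.08 against −0.03 over all genes. The higher member was *Rfc1*, the large subunit of the clamp loader (0.68 ± 0.06), and the lower ones were *Pcna*, the sliding clamp (−1.21 ± 0.05), *Rfc3*, another clamp loader subunit (−0.88 ± 0.09), and *Tyms* (−0.84 ± 0.10). At an unadjusted p under 0.05, 6 members were higher and 17 lower.

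**Figure D1:**
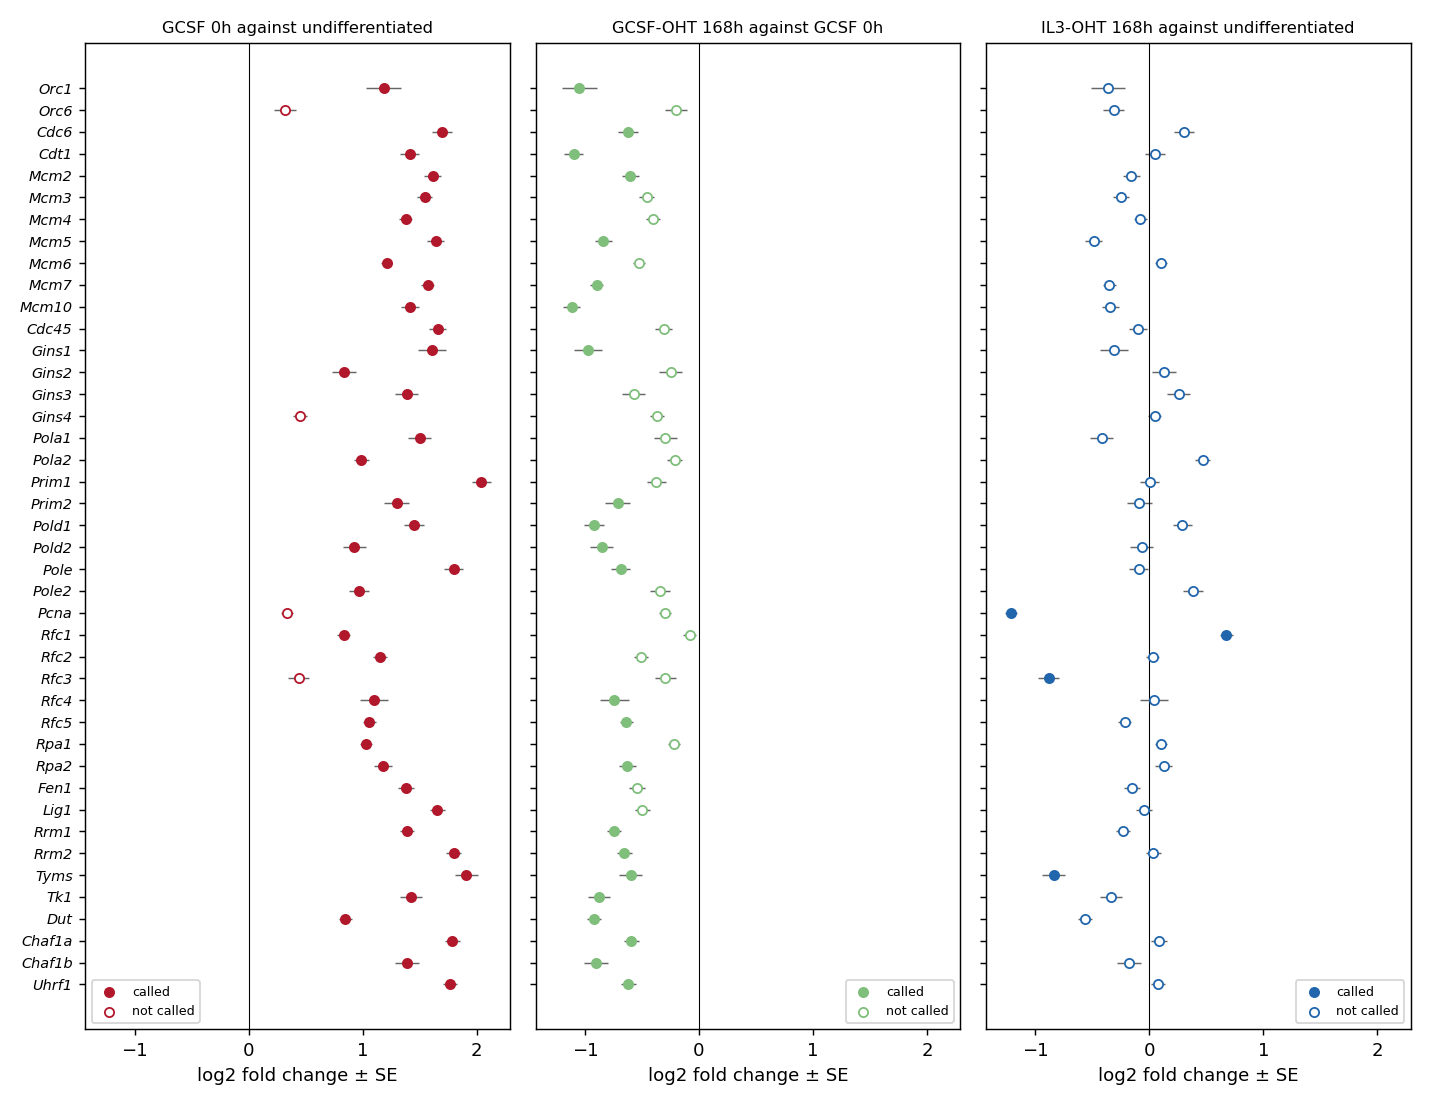
Log2 fold change (x axis, with SE bars) of the 42 members, 1 row each in order of role, at GCSF 0h against undifferentiated cells (left), GCSF-OHT 168h against GCSF 0h (middle) and IL3-OHT 168h against undifferentiated cells (right), filled where called. All 42 points lie above 0 at left (38 filled) and below 0 in the middle (23 filled), and at right 4 points are filled.

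Of the licensing factors, which mark and load origins, 3 of 4 rose at GCSF 0h and 3 fell over the GCSF-OHT course. *Cdc6* (chr11:98907801-98923940), the ATPase that recruits MCM to the origin recognition complex, spanned the widest range of the 4. Its normalized counts in the 3 libraries of each group were 272, 285 and 262 in undifferentiated cells, 861, 910.2 and 895 at GCSF 0h, 524, 599 and 611 at GCSF-OHT 168h and 385, 323 and 310.1 at IL3-OHT 168h. The 4 groups did not overlap with each other, and undifferentiated cells were lowest. Its log2 fold change was 1.70 ± 0.09 at GCSF 0h (limma adjusted p = 1.27e-35) and −0.62 ± 0.09 from there to GCSF-OHT 168h (adjusted p = 1.14e-09), while the difference of 0.31 at IL3-OHT 168h did not pass the fold threshold. *Cdt1* rose by a log2 fold change of 1.41 in GCSF and fell by 1.10 on the log2 scale after OHT, and *Orc1* rose by 1.18 and fell by 1.05. *Orc6*, the smallest subunit of the origin complex, passed in none of the endpoint comparisons (between −0.31 and 0.32).

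All 6 subunits of the MCM helicase, the motor that unwinds DNA at the fork, rose at GCSF 0h, with log2 fold changes between 1.21 (*Mcm6*) and 1.64 (*Mcm5*, at chr8:75109569-75128439). For *Mcm5*, the libraries read 1553, 1589 and 1640.2 (undifferentiated), 4586, 5259 and 5085 (GCSF 0h), 2847, 2757 and 2735 (GCSF-OHT 168h) and 1284, 1013 and 1126 (IL3-OHT 168h) in normalized counts. The GCSF 0h libraries were highest, GCSF-OHT 168h libraries intermediate, and IL3-OHT 168h libraries below all undifferentiated ones. The rise of *Mcm5* in GCSF (1.64 ± 0.07, adjusted p = 2.4e-41) and its fall after OHT in GCSF (−0.84 ± 0.07, adjusted p = 2.92e-19) passed, and its lower level at IL3-OHT 168h (−0.49 ± 0.07) did not pass the fold threshold. *Mcm7* (−0.90) and *Mcm2* (−0.60) also fell after OHT in GCSF, whereas *Mcm3* (−0.46), *Mcm4* (−0.40) and *Mcm6* (−0.52) did not pass. All 6 stayed higher at GCSF-OHT 168h than in undifferentiated cells.

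Helicase activation rests on Cdc45 and the 4 GINS subunits, which bind MCM to form the active helicase, and on Mcm10. Of these 6 genes, 5 rose at GCSF 0h. *Gins1* (chr2:150905400-150931280) spanned the widest range of them. Its normalized counts in the 3 libraries of each group were 100.75, 106 and 119 in undifferentiated cells, 325, 345 and 329.9 at GCSF 0h, 181.02, 164.30 and 163.43 at GCSF-OHT 168h and 89.1, 86 and 86.7 at IL3-OHT 168h. GCSF 0h libraries were highest, and those of IL3-OHT 168h lay below all undifferentiated ones. The log2 fold changes of *Gins1* were 1.61 ± 0.12 (adjusted p = 1.8e-23) in GCSF and −0.97 ± 0.12 (adjusted p = 1.02e-11) over the GCSF-OHT course. Its partner *Gins4* (chr8:23226616-23237659) had the narrowest range of all 42 members. Normalized counts of *Gins4* stood at 559, 624 and 646 in undifferentiated libraries, 787, 828 and 879.8 at GCSF 0h, 638, 632 and 661 at GCSF-OHT 168h and 633, 658 and 597 at IL3-OHT 168h. Only the GCSF 0h libraries of *Gins4* stood above the other 3 groups, which overlapped, and none of its endpoint comparisons passed. *Cdc45* rose by a log2 fold change of 1.66 in GCSF and, at −0.31, did not pass over the following 168 h.

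The 8 genes of the polymerases and primase all rose at GCSF 0h. The widest range was that of *Prim1* (chr10:128015168-128030037). For *Prim1*, the libraries read 364, 429.6 and 425 (undifferentiated), 1559, 1784 and 1666 (GCSF 0h), 1266, 1349.6 and 1244 (GCSF-OHT 168h) and 414, 393 and 414 (IL3-OHT 168h) in normalized counts. Libraries of undifferentiated and IL3-OHT 168h cells overlapped, and those of both GCSF groups lay above them. *Prim1* had the largest log2 fold change of any member in GCSF (2.04 ± 0.08, adjusted p = 3.17e-45), and its difference from there to GCSF-OHT 168h (−0.37 ± 0.08) did not pass. Of this group 4 members fell over the GCSF-OHT course: *Pold1*, the catalytic subunit of the lagging strand polymerase delta (−0.92), *Pold2*, its accessory subunit (−0.85), *Prim2*, the large primase subunit (−0.71), and *Pole*, the catalytic subunit of the leading strand polymerase epsilon (−0.69). *Pola1*, the catalytic subunit of polymerase alpha that extends the primer, rose in GCSF (1.5) and was not called over the GCSF-OHT course (−0.29).

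The sliding clamp *Pcna* (chr2:132249162-132253314) and 2 subunits of its loader (replication factor C), *Rfc3* and *Rfc1*, had other courses than most members in IL3. Pearson's r of their means with the median of the other members was 0.63, 0.43 and 0.13 in IL3, in that order. In GCSF it was 0.88, 0.89 and 0.70. Normalized counts of *Pcna* stood at 3791, 4011 and 4322 in undifferentiated libraries, 4886, 5155 and 5249.8 at GCSF 0h, 4069, 4201 and 4175 at GCSF-OHT 168h and 1747, 1754 and 1733 at IL3-OHT 168h. The GCSF 0h libraries were above all undifferentiated ones by a margin that did not pass the fold threshold (0.34 ± 0.05), and those of IL3-OHT 168h were below every other group. *Pcna* at IL3-OHT 168h had a log2 fold change of −1.21 ± 0.05 (adjusted p = 1.1e-41). A pseudogene, *Pcna-ps2*, was counted at 2.75% to 6.96% of the level of *Pcna*, and reads shared between them would make both uncertain. At these endpoints *Rfc3* resembled *Pcna*, with a log2 fold change of 0.44 at GCSF 0h (not called) and a called one of −0.88 by IL3-OHT 168h. *Rfc1* took the other direction in IL3, with normalized counts of 1133, 1248 and 1254 in undifferentiated cells and 1954, 1976 and 1873 at IL3-OHT 168h, with no overlap. *Rfc2* (1.16), *Rfc4* (1.10) and *Rfc5* (1.06) rose in GCSF as most members did, and of these *Rfc4* (−0.74) and *Rfc5* (−0.64) fell after OHT.

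Single-strand binding and Okazaki fragment joining are carried out by replication protein A, the flap nuclease Fen1 and DNA ligase 1 (*Lig1*, chr7:13277283-13311433), and all 4 genes measured rose at GCSF 0h. Normalized counts of *Lig1* stood at 922, 991 and 899 in undifferentiated libraries, 2767, 3165 and 2944 at GCSF 0h, 2171, 2036 and 2079 at GCSF-OHT 168h and 924, 887 and 912 at IL3-OHT 168h. Undifferentiated and IL3-OHT 168h libraries overlapped, and the 2 GCSF groups lay above them without overlap. *Lig1* rose by 1.66 ± 0.07 (adjusted p = 1.18e-45), and its later difference of −0.50 ± 0.07 did not pass the fold threshold. *Rpa2* alone of these 4 fell after OHT in GCSF (−0.63 ± 0.08).

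The 5 genes of nucleotide supply rose at GCSF 0h and fell over the GCSF-OHT course, every member passing both times. *Tyms* (chr5:30058202-30073617), which makes the thymidylate for DNA, had the widest range of all members. Its normalized counts in the 3 libraries of each group were 213, 240.4 and 199.7 in undifferentiated cells, 713, 897 and 858 at GCSF 0h, 529, 580.3 and 515 at GCSF-OHT 168h and 129.45, 127.17 and 107 at IL3-OHT 168h. GCSF 0h libraries were highest, and IL3-OHT 168h libraries lay below all undifferentiated ones. Its log2 fold changes were 1.91 ± 0.10 (adjusted p = 4.77e-35), −0.60 ± 0.10 (adjusted p = 2e-07) and −0.84 ± 0.10 (adjusted p = 2.76e-12) in the 3 comparisons. *Dut*, which removes dUTP, fell by 0.92 on the log2 scale after its rise of 0.85 and was the member with the lowest value at GCSF-OHT 168h against undifferentiated cells (−0.07, not called). *Rrm1*, *Rrm2* and *Tk1*, thymidine kinase, fell by 0.75, 0.66 and 0.88.

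Chromatin assembly was represented by the subunits of CAF-1, which deposits histones behind the fork, and by *Uhrf1* (chr17:56303321-56323486), which brings the maintenance DNA methyltransferase to newly copied DNA. Normalized counts of *Uhrf1* stood at 1191, 1145 and 1185 in undifferentiated libraries, 3852, 4070.0 and 4061 at GCSF 0h, 2714, 2549 and 2543 at GCSF-OHT 168h and 1319, 1219 and 1174 at IL3-OHT 168h. Undifferentiated and IL3-OHT 168h libraries overlapped, and GCSF 0h libraries were highest. *Uhrf1* rose by 1.77 ± 0.06 (adjusted p = 4.74e-51) and fell after OHT in GCSF (−0.62 ± 0.06, adjusted p = 4.86e-16). *Chaf1a* and *Chaf1b* moved in the same directions, by 1.78 and 1.39 up and then by −0.59 and −0.90.

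Exons of 12 members overlap those of another coding gene on GRCm38, among them *Cdc45* (with *Ufd1*), *Mcm7* (with *Cops6* and *Ap4m1*), *Chaf1a* (with *Ubxn6*) and *Rfc4* (with *Eif4a2*). The strand setting of the counting is not given in the sources used here, so reads of such neighbours may be shared.

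Over the GCSF-OHT course the members dipped, recovered and dipped again. Against GCSF 0h, the counts of members lower went from 2 at 4h to 30 at 8h (background 4.01%), 10 at 12h and 0 at 20h, 24h and 32h. At 8h the median log2 fold change was −0.69, with *Chaf1b* (−1.45), *Mcm2* (−1.03) and *Cdc6* (−1.02) furthest down. Medians returned to −0.05 at 72h and −0.06 at 96h, and then declined to −0.78 at 160h, when 34 members were lower (background 13.9%). The lowest at 160h were *Orc1* (−1.34), *Chaf1b* (−1.31) and *Gins1* (−1.27). Over the 27 time points, 249 of 1134 pairs of member and time point were lower (background 6.99%) and 0 higher (background 8.39%, edgeR 0 and DESeq2 0, 17 at an unadjusted p under 0.05). All 27 comparisons share the 3 GCSF 0h libraries, so that their counts are not independent.

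The dip at 8h was of short duration. *Mcm2* had normalized counts of 3534, 3762 and 3417 (4h), 2027, 2238 and 2033 (8h) and 2935, 3096 and 3726 (12h). The 8h libraries lay below all those of 4h and 12h. Between 4h and 8h, 11 members fell (background 2.13%), led by *Chaf1b* (−1.02 ± 0.10), *Gins1* (−0.89 ± 0.12) and *Mcm2* (−0.77 ± 0.07). From 8h to 12h *Uhrf1* (0.66) and *Mcm2* (0.62) rose (background 2.25%), a count of 2 that was 7, 7 and 0 without replicates 1, 2 and 3. Reads on members made up 0.364% at 4h, 0.256% at 8h and 0.308% at 12h.

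In the IL3-OHT course 18 to 27 members were higher than at the start between 16h and 56h, 6 at 64h and 20 at 72h. Between 128h and 160h, 17 to 25 were lower. Pooled over the IL3-OHT time points tested, 11% of all genes were called higher and 15.7% lower. The count of 6 at 64h lay close to what that share of higher calls would give. Backgrounds of single time points are given below for 16h, 48h and 136h only. Up to 12h at most 2 members were higher and at most 3 lower at any time point. Against undifferentiated cells, 18 members were higher at 16h (background 10.9%), and between 20h and 56h there were 24 to 27. At 48h the count was 27 (background 12.8%) with a median of 0.69, and *Rrm2* (1.29), *Tyms* (1.27) and *Cdc6* (1.17) were furthest up. By 80h the count was 2 (2, 0 and 3 without replicates 1, 2 and 3). The low point was 136h, with 25 members lower (background 20.7%) and a median of −0.84. There *Tyms* (−2.37), *Pcna* (−1.73) and *Mcm5* (−1.53) were furthest down. Reads on members made up 0.244% at 48h and 0.0811% at 136h.

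*Tyms* shows the extent of this swing. Its normalized counts were 213, 240.4 and 199.7 in undifferentiated cells, 532, 514 and 535 after 48h, 39.6, 39.9 and 44.5 after 136h and 129.45, 127.17 and 107 after 168h in IL3-OHT. None of these groups overlapped. *Uhrf1* followed the same path, with 2289, 2189 and 2250.4 at 48h and 512, 447 and 485 at 136h. *Gins4* did not: it had 648, 616 and 649 at 48h and 591, 614 and 530.2 at 136h, ranges that overlap that of undifferentiated libraries.

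Over the 25 IL3-OHT time points tested, 210 of 1050 pairs of member and time point were higher (background 11%) and 113 lower (background 15.7%). *Pcna* was higher at 0 time points and lower at 14: at 12h, at none from 16h to 48h, and at all those tested from 56h on. *Rfc3* was lower at 10 time points, all from 80h on. *Rfc1* was higher at 10 time points, the first at 20h, and lower at 0.

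**Figure D2:**
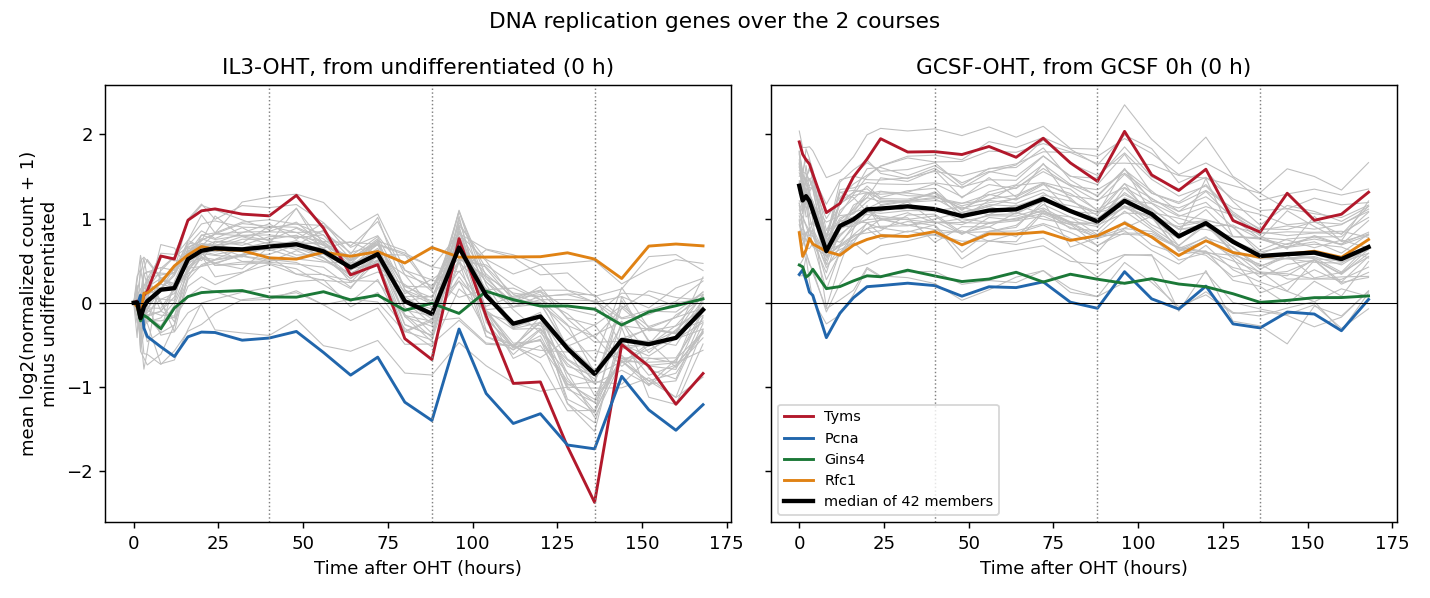
Mean log2(normalized count + 1) of each member minus its mean in undifferentiated cells (y axis) against hours after OHT (x axis) in IL3-OHT (left, 96h and 144h included) and GCSF-OHT (right). Thin grey lines are members, 4 are coloured, the thick black line is the median of the 42, and dotted lines mark the medium replacements at 40h, 88h and 136h. The median in IL3 was 0.69 at 48h and reached −0.84 at 136h, with a peak at 96h, and in GCSF it started at 1.39, with a dip at 8h.

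**Figure D3:**
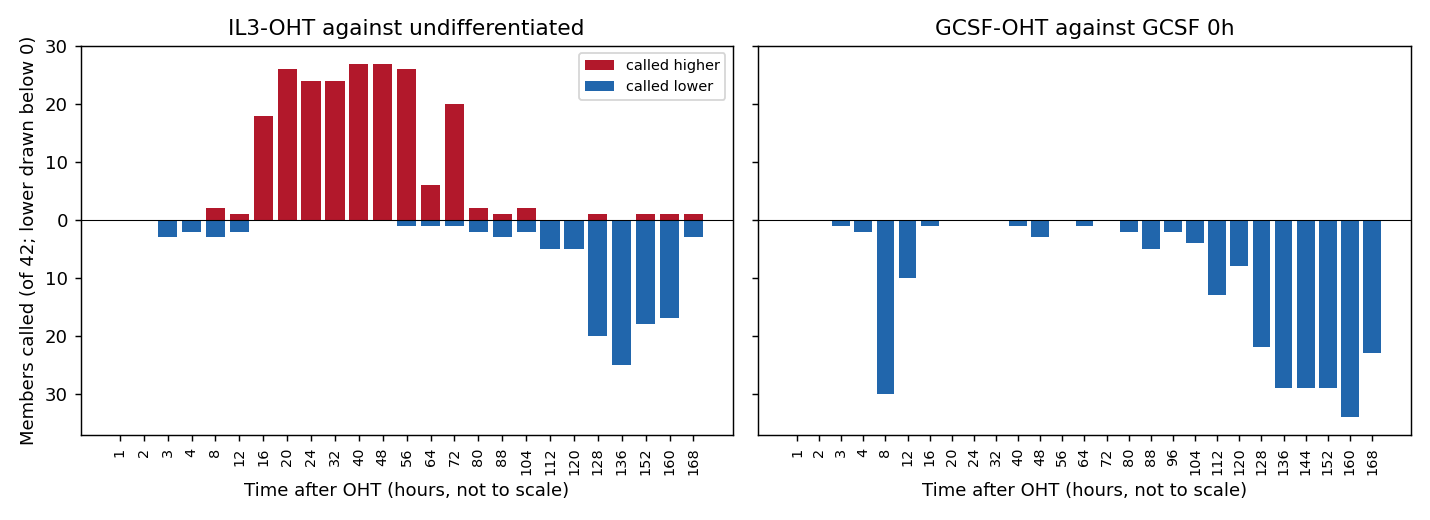
Number of the 42 members called higher (red, above 0) or lower (blue, below 0) at each time point against the start of OHT treatment (limma), for IL3-OHT against undifferentiated cells at left and GCSF-OHT against GCSF 0h at right. In GCSF all bars point down, with 30 at 8h and 34 at 160h, and in IL3 they point mostly up from 16h to 72h (27 at 48h) and mostly down from 112h (25 at 136h).

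With IL3-OHT 96h and 144h left aside, the highest mean of each member over both courses lay in GCSF for all 42: at GCSF 0h for 13, at 96h for 10, at 72h for 9, and at 1h to 3h or 32h for the other 10. The lowest mean lay in IL3-OHT for all 42 and at 136h for 23. Members spanned 0.756 (*Gins4*) to 4.40 (*Tyms*) on the log2 scale between their lowest and highest means (median 2.27). Pearson's r of a member's means with the median of the other 41 was 0.518 to 0.973 over the 28 GCSF means (lowest *Pola2*, highest *Pole*) and 0.131 to 0.988 over the 26 IL3 means (lowest *Rfc1*, highest *Mcm10*). In IL3 the members under 0.5 were *Rfc1*, *Pole2*, *Rfc3*, *Pola2* and *Cdt1*. These are descriptions over time points that share libraries' scaling and, for neighbours, culture conditions. For *Tyms* and *Mcm5* r was 0.944 and 0.958 in IL3 and 0.908 and 0.967 in GCSF.

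**Figure D4:**
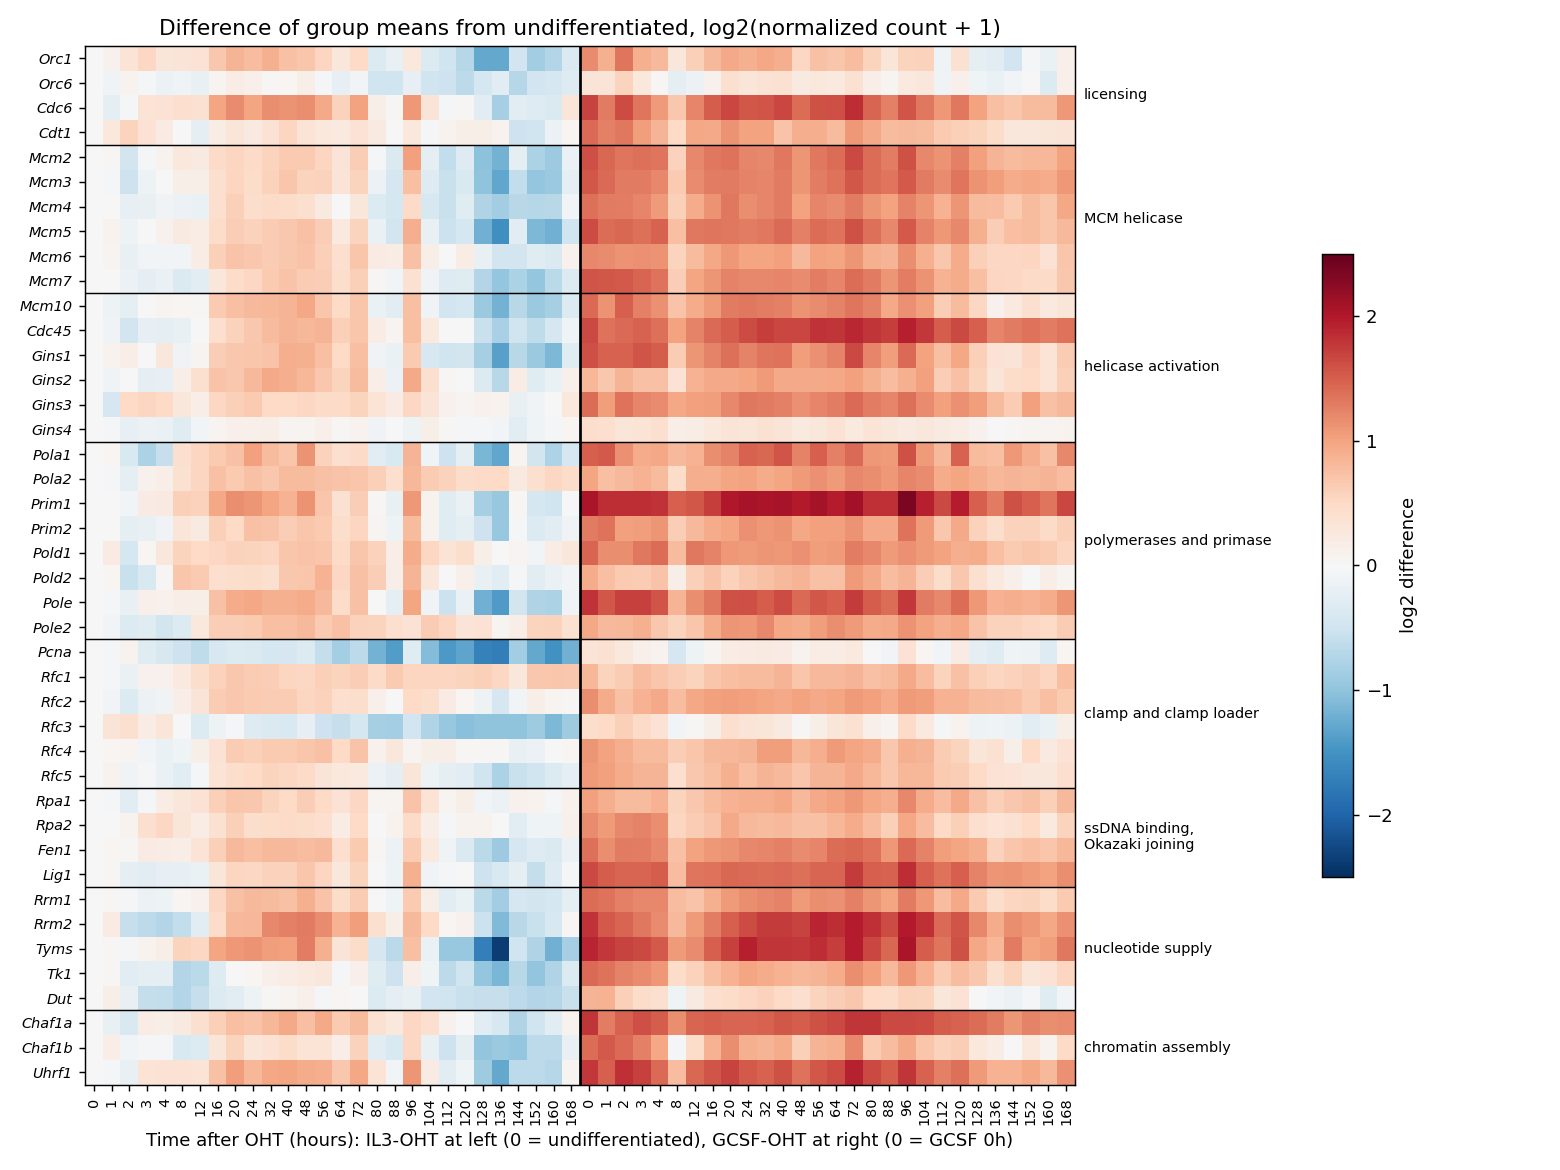
Difference of each member's mean log2(normalized count + 1) from its mean in undifferentiated cells (colour, red higher, blue lower), members in rows by role and time points in columns, IL3-OHT at left and GCSF-OHT at right. In GCSF 36 of the 42 rows are above 0 at every time point, and at 136h in IL3 34 are below 0, while the rows of *Rfc1*, *Pola2* and *Pole2* are not blue there.

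Most members were higher in the GCSF-OHT course than in the IL3-OHT course. Averaged over the 25 shared time points, 32 of 42 members were higher in GCSF-OHT (background 9.34%) and 0 lower (background 15.1%, 0 also in edgeR and DESeq2, and 0 at an unadjusted p under 0.05), with a median of 0.84 against −0.06 over all genes. *Prim1* (1.55 ± 0.02), *Tyms* (1.53 ± 0.02) and *Cdc45* (1.40 ± 0.02) differed most. The 10 that did not pass include *Gins4* (0.26), *Rfc1* (0.22) and *Orc6* (0.33). All 6 MCM subunits, all 5 genes of nucleotide supply and all 3 of chromatin assembly passed.

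The gap between the courses was narrowest at 48h. At 1h 38 members were higher in GCSF-OHT (background 11.1%) with a median log2 difference of 1.27, and at 48h the count was 7 (background 5.92%) with a median of 0.29. By 136h, 32 members were higher again (background 16%), with a median of 1.30. The 7 at 48h were *Prim1* (0.87), *Cdc45* (0.84), *Chaf1a* (0.75), *Lig1*, *Gins3*, *Mcm4* and *Tk1*, and leaving out replicate 3 left 4. *Prim1* had 1677, 1509.9 and 1635 in GCSF-OHT and 843, 937 and 865 in IL3-OHT at that time, without overlap. Over the 25 time points, 700 of 1050 pairs of member and time point were higher in GCSF-OHT (background 9.97%) and 0 lower (background 12.7%), with at most 1 member lower at an unadjusted p under 0.05 at any time point. *Gins4* passed at none, whereas *Cdc45*, *Chaf1a*, *Lig1*, *Mcm4* and *Prim1* passed at all 25.

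**Figure D5:**
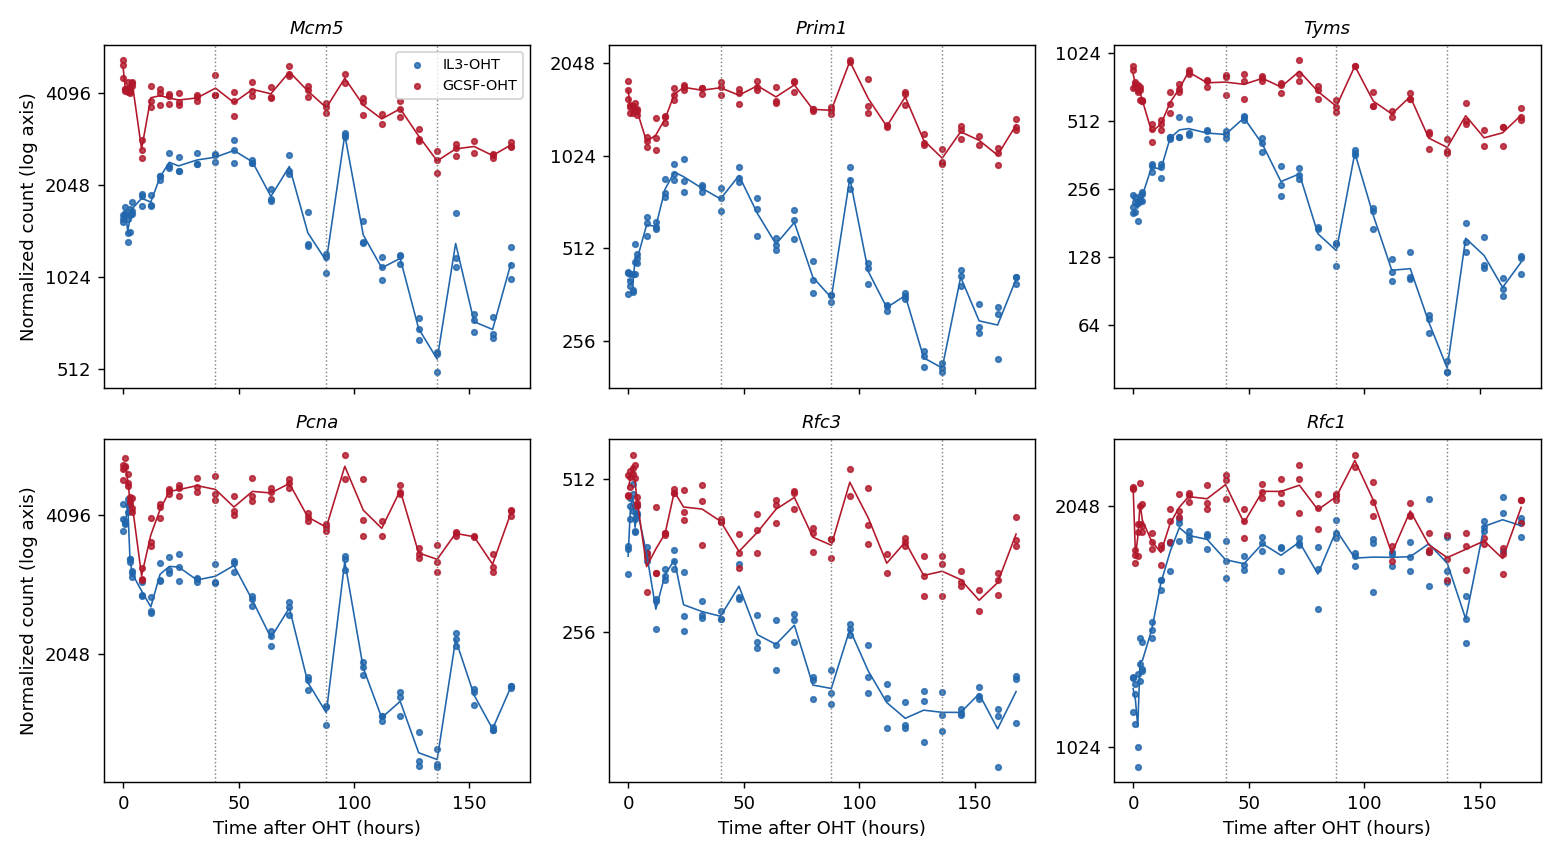
Normalized counts (y axis, log scale) of 6 members in each library against hours after OHT (x axis), IL3-OHT in blue from undifferentiated cells at 0 and GCSF-OHT in red from GCSF 0h, with lines through the means and dotted lines at the medium replacements. *Mcm5*, *Prim1*, *Tyms* and *Pcna* are higher in GCSF-OHT at every time point without overlap of libraries, while those of *Rfc1* overlap from 112h on at 6 time points.

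The change over 168 h of OHT was tested directly for a difference between the courses. Taking the change from GCSF 0h in GCSF minus the change from undifferentiated cells in IL3, 20 members had a negative difference (background 11.3%) and 2 a positive one (background 14.5%). The median difference was −0.54, against 0.03 over all genes. *Pold1* (−1.21 ± 0.12), *Cdt1* (−1.15 ± 0.12) and *Cdc6* (−0.93 ± 0.13) were the most negative. *Pcna* (0.91 ± 0.08) and *Rfc3* (0.58 ± 0.13) were positive, and *Rfc3*, near the fold threshold, lost its call without replicate 2. Both fell in IL3 and were not called in GCSF. The courses start from unlike levels, since 38 members differ between undifferentiated cells and GCSF 0h.

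The steps between neighbouring time points in IL3-OHT with 5 or more calls came at 5 times. From 12h to 16h 5 rose (background 1.7%), led by *Rrm2* (0.73 ± 0.06), *Chaf1b* (0.65 ± 0.10) and *Mcm10* (0.62 ± 0.08), and without replicates 1 and 2 there were 3 and 7. From 72h to 80h 19 fell (background 2.26%), led by *Tyms* (−0.88 ± 0.10), *Mcm10* (−0.87 ± 0.08) and *Cdc6* (−0.86 ± 0.09), and without replicate 1 there were 11. From 120h to 128h 10 fell (background 2.49%), with *Pole* (−1.04 ± 0.08) and *Pola1* (−0.92 ± 0.10) first. The step starts from the libraries with the other series of names, and in GCSF-OHT 3 members fell over it (median −0.26). From 112h to 128h, a comparison added after the data were seen that leaves out 120h, 8 members fell in IL3-OHT (background 2.37%, *Pole* −0.66 ± 0.08, *Pola1* −0.63 ± 0.10) and 0 in GCSF-OHT (background 0.0747%, 9 lower at an unadjusted p under 0.05). Late in the course, 6 rose from 136h to 152h (background 9.22%), with *Tyms* (1.62 ± 0.10) highest, and 8 from 160h to 168h (background 0.919%), with *Gins1* (0.81 ± 0.12), *Uhrf1* (0.79 ± 0.06) and *Mcm2* (0.75 ± 0.07). Over all steps 23 rises and 34 falls were called among 1050 pairs of member and step in IL3 (backgrounds 1.76% and 1.88%), and 4 rises and 15 falls among 1134 in GCSF (backgrounds 0.935% and 0.87%).

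The first time points after the medium was replaced include the 2 IL3 groups that stand apart. With those libraries in the fit, 25 members were higher at IL3-OHT 96h than at 88h (background 10.8%), with a median of 0.69, led by *Tyms* (1.44 ± 0.10), *Mcm2* (1.39 ± 0.08) and *Mcm5* (1.37 ± 0.08). *Mcm5* had normalized counts of 1194, 1057 and 1224 (88h), 2961, 3050.1 and 2989.5 (96h) and 1565, 1327 and 1338 (104h). The 96h libraries lay above all those of 88h and 104h. At IL3-OHT 144h 13 members were higher than at 136h and 1 lower (backgrounds 14% and 11.8%), with *Tyms* (1.87 ± 0.10), *Pola1* (1.38 ± 0.10) and *Mcm5* (1.23 ± 0.08) up and *Cdt1* (−0.60 ± 0.09) down, the last call lost without replicate 1. In GCSF-OHT 1 member, *Tyms* (0.59 ± 0.11), was higher at 96h than at 88h (background 1.14%), a call lost without replicate 2. The remaining steps after a medium replacement called 0 members in limma, and also in edgeR and DESeq2, which were run without the IL3-OHT 96h and 144h libraries: GCSF-OHT 40h to 48h (1 higher and 16 lower at an unadjusted p under 0.05 in limma), GCSF-OHT 136h to 144h (5 and 2) and IL3-OHT 40h to 48h (6 and 2). Whether the medium or another feature of the 96h and 144h libraries goes with these differences was not tested.

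Differences between the courses in single steps were also tested, for 3 steps chosen after their values were seen. From 4h to 8h, 15 members changed more negatively in GCSF than in IL3 (background 4.15%), with *Pold2* (−1.22 ± 0.14), *Pola1* (−1.15 ± 0.14) and *Mcm2* (−0.95 ± 0.11) first. For *Pold2* and *Pola1* most of this difference was a rise in IL3. From 72h to 80h, 2 members changed more negatively in IL3 (background 0.425%), *Mcm10* and *Tyms*, and without replicates 1, 2 and 3 there were 1, 4 and 7. From 88h to 96h, 17 changed more positively in IL3 (background 6.84%), with *Mcm2* (1.08 ± 0.12), *Mcm5* (1.06 ± 0.12) and *Gins2* (0.99 ± 0.16) first.

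Other genes of replication, taken from a list of 42, moved in part with the members. At GCSF 0h 24 were higher and 1 lower than in undifferentiated cells (backgrounds 13% and 20.7%, median 0.75). Among the higher were *Dscc1* (2.36) and *Chtf18* (2.08), which belong to the alternative clamp loader for cohesion, and *Clspn* (2.29), a fork checkpoint mediator, and the lower one was *Pold4* (−1.68), the small subunit of polymerase delta. Over the GCSF-OHT course 3 rose and 9 fell (backgrounds 12.1% and 12.6%). *Samhd1*, which degrades deoxynucleotides, rose by 2.18 there and by 2.32 at IL3-OHT 168h, and *Rrm2b*, the ribonucleotide reductase subunit used outside S phase, rose by 0.83 in GCSF. In IL3 4 were higher and 4 lower at 168h (backgrounds 10.2% and 15.2%), counts that did not exceed those shares.

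Genes of E2F and G1/S control (22) and of mitosis (18) were taken alongside. At GCSF 0h 18 of 18 mitosis genes were higher (background 13%, median 1.48), with the kinesin *Kif11* (1.86) and the kinase *Aurkb* (1.75) first. Over the GCSF-OHT course 15 fell (background 12.6%), with *Cdc20* (−1.29), an activator of the anaphase-promoting complex, and *Plk1* (−1.18) first. In IL3 6 mitosis genes were lower at 168h (background 15.2%). Of the E2F and G1/S list, 13 were higher and 1 lower at GCSF 0h (backgrounds 13% and 20.7%). *E2f2*, an activating E2F, rose by 2.38 ± 0.08 at GCSF 0h and by a further 2.18 ± 0.08 to GCSF-OHT 168h, a time over which 23 members fell. *Rb1*, the retinoblastoma protein, rose by 1.10 over the same time, and *Cdc25a* (−1.03) and *Myc* (−0.85) fell.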

How the data were processed

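Libraries of PUER cells (poly(A) RNA, paired-end) were grouped by their labels. The authors quantified reads with Salmon (selective alignment to GRCm38) and deposited normalized signal, the counts divided by DESeq2's size factors, and how transcripts were brought to genes is not given in the sources used here. Whole multiples of 1 read made up all nonzero values (100%, tolerance 1e-06, and 7 libraries with a size factor near 1 fall outside the automatic check of this), so whole counts were recovered. These counts rest on Salmon's estimates of abundance and are called reads in this text. Genes reaching a normalized count of 5 in 1 library or more were tested on log2(normalized count + 1), a scale that understates the change of low genes, with limma 3.58.1 in R 4.3.3 (a mean for each condition at each time, eBayes with a trend, 159 libraries in 54 groups, Benjamini-Hochberg adjustment per comparison). The study's thresholds for a call were kept: adjusted p below 0.05 and a log2 fold change beyond 0.58 in size. Steps after medium replacement used a fit with IL3-OHT 96h and 144h included. Alternatives were pseudocounts of 0.5 and 5, other filters, upper-quartile scaling, each replicate left out, a replicate block, limma fitted to the compared groups alone, IL3-OHT 96h and 144h kept in the fit (added after the data were seen, like a comparison of 112h with 128h), edgeR 4.0.16 and DESeq2 1.42.0 on the recovered reads. The script was tested on simulated counts. The p-values measure the spread between wells. Members, lists and steps were chosen with earlier results of these data known. Named were all members, those with the widest range in each role and the narrowest of all in more detail, and up to 3 genes per direction of the other lists. Counting errors only are covered by the floor of 3 reads.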

Additional observations from a re-analysis of the deposited data

Results flagged for a closer look

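Results were listed here when a test of the difference between the courses itself passed. Of the change over 168 h of OHT in GCSF minus that in IL3 (limma), 2 members had a positive and 20 a negative difference. The positive ones were *Pcna* (0.91) and *Rfc3* (0.58), and the most negative *Pold1* (−1.21), *Cdt1* (−1.15) and *Cdc6* (−0.93). *Rfc3* lay at the fold threshold and was no longer called under 4 of 12 alternatives. This difference was tested at 168h alone. At 136h the member medians against each course's own start were −0.73 in GCSF and −0.84 in IL3.

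The 3 steps that follow were chosen after their values were seen. Between 4h and 8h, 15 members differed in their change, GCSF minus IL3, with *Pold2* at −1.22, *Pola1* at −1.15 and *Mcm2* at −0.95. For *Pola1* and *Pold2*, most of this difference is a rise in IL3 over the same step (0.98 and 0.67). Between 72h and 80h, 2 members differed, IL3 minus GCSF: *Mcm10* (−0.77) and *Tyms* (−0.59), and leaving out a replicate gave 1 to 7. Between 88h and 96h, 17 members differed, IL3 minus GCSF, with *Mcm2* (1.08), *Mcm5* (1.06) and *Gins2* (0.99) first. This last step rests on IL3-OHT 96h, which the study left out, and on the 2 libraries of GCSF-OHT 96h, and no value without them can be had.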

How the results depend on the processing

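Counts of members called kept their direction and stayed within 1.5 times the reported count under every alternative run. Over all alternatives they ran 38 (reported 38) for GCSF 0h against undifferentiated cells, 20 to 24 (23) for GCSF-OHT 168h against GCSF 0h, 25 to 29 (27) for GCSF-OHT 168h and 4 to 5 (4) for IL3-OHT 168h against undifferentiated cells, 32 (32) between the courses, 20 to 24 (22) for the cytokine dependence, 75 to 86 (76) over all steps, 566 to 602 (572) over all time points against the start, and 39 to 41 (40) after medium replacement, where edgeR and DESeq2 were not run. Leaving out each replicate (groups of 2 libraries kept both) gave 38, 20 to 24, 25 to 27, 4 to 5, 32, 20 to 24, 76 to 86, 569 to 577 and 39 to 41 in that order. For single comparisons, leaving out a replicate moved the count of members by over 1.5 times at IL3-OHT 72h to 80h (19 to 11, without replicate 1), IL3-OHT 12h to 16h (5 to 3, without replicate 1), and, without replicate 3, at GCSF-OHT 88h (5 to 3) and 120h (8 to 5) against GCSF 0h and between the courses at 40h (16 to 10) and 48h (7 to 4). Counts of 1 or 2 in single comparisons moved by as much.

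Samples with the same replicate number did not deviate together (Pearson's r −0.0408 to 0.0307 over 12 pairs of libraries in 4 comparisons), so the numbers were not taken as pairs. A fit with the replicate number as a block gave 38, 23, 27, 4, 32, 22, 76, 570 and 40 called in the same order. Upper-quartile scaling and edgeR's normalization moved the median of all genes by at most 0.05. Of 146 values of named members per alternative (92 for limma fitted to the compared groups alone), none reversed, and at most 7 lost their call (without replicate 2). The fewest reads behind a member in any library were 16 (*Orc1*), so that counting error matters most for the lowest members.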
